A study of Bos taurus with 47 samples.

Results

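Muscle fibres burn fatty acids that reach them in the blood, in part packed as triglyceride in lipoproteins. Lipoprotein lipase (LPL) is made in muscle and fat cells and works at the wall of the capillary, where it splits that triglyceride and frees its fatty acids. CD36 is a membrane protein of muscle, fat and endothelial cells that helps long-chain fatty acids across the cell membrane. FABP3, the heart-type fatty acid binding protein, carries fatty acids through the watery inside of heart and skeletal muscle fibres. The 3 genes thus stand at successive steps of the same route, from the vessel to the inside of the fibre.

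The 3 genes were taken from the count tables by their Ensembl cattle identifiers, ENSBTAG00000012855 for LPL, ENSBTAG00000017866 for CD36 and ENSBTAG00000016819 for FABP3, and are 3 of the 27607 identifiers counted. All 3 passed the filter on low counts in every comparison. The tables carry identifiers alone. A RefSeq gene table of 37063 cattle genes holds all 3 symbols but 0 Ensembl identifiers, so the pairing of symbol and identifier is the one given for these genes and was not checked here. For the same reason muscle markers could not be used to check the labelled tissue, nor markers of fat, vessel or blood cells to say which cells gave the RNA. In bulk tissue, more cells of a type and more RNA per cell cannot be told apart.

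The 47 libraries of polyA RNA came from Longissimus muscle of crossbred Angus cattle. Pregnant F0 heifers grew by 0.28 kg per day in the low gain group (LG) and by 0.79 kg per day in the moderate gain group (MG) until day 84 of gestation, and were then managed as 1 group. F2 fetuses of day 84, named LG or MG after the treatment of the F0 generation, gave 8 LG and 8 MG libraries of Longissimus dorsi dissected from the whole fetus. All F1 heifers, the offspring of the F0 heifers, were managed alike whatever their group. Longissimus thoracis of F1 heifers gave 8 LG and 8 MG libraries at birth, before the first suckling, and 8 LG and 7 MG libraries at slaughter. The protocol text counts 7 LG and 8 MG at slaughter, and the sample labels were followed. Libraries are called by their group and number. As the labels do not state that each number is a separate animal, a p-value here speaks of variation from library to library, which may be technical. The fetal stage differs from birth and slaughter also in generation and in the part of the muscle taken, and each stage has its own deposited table, so that these cannot be told apart from stage. Neither the sex of the fetuses nor the age at slaughter is stated in the labels.

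Total counts ran from 15526773 to 21916940 in fetuses, from 13308433 to 22671822 at birth and from 14972276 to 32547565 at slaughter. The lowest count of any of the 3 genes in any library was 22, for LPL in fetal library MG 31. Levels are given in CPM, a count relative to the TMM-scaled size of its library, where TMM is a scaling that aligns the bulk of genes between libraries. The 10 most abundant genes took between 9.23% and 13.9% of counts in fetuses, between 17.3% and 26.8% at birth and between 22.1% and 25.8% at slaughter. TMM factors lay between 1.19 and 1.93 in fetuses, against 0.723 to 1.08 at birth and 0.731 to 0.938 at slaughter. As gene lengths were not used, CPM of 1 gene is compared between libraries and never with that of another gene. Fetal library MG 20 stood farthest from the others on the first principal component of its stage, and birth library MG 17 had the lowest share of counts in the top 10 genes at birth. Values without them are given beside the results they move most.

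All 3 genes were low in the fetus and high after birth. LPL was 31.1-fold, CD36 12.3-fold and FABP3 9.84-fold higher at birth than in day 84 fetuses. With TMM scaling every birth library lay above every fetal one for each of the 3 genes, as for 13.9% of all genes. With scaling by total count this held for LPL but not for CD36 and FABP3. At slaughter 1 of the 3 genes, CD36, was called higher than at birth (1.43-fold), where 37% of all genes were. Gain of the F0 heifers gave 0 calls among the 3 genes at any stage, and 0% over all genes.

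LPL, the lipase, had 0.952, 2.33 and 11.4 CPM in its lowest, median and highest fetal library, 47.3, 95.6 and 124 CPM at birth, and 38.8, 101 and 149 CPM at slaughter. The highest fetal value, in MG 20, was far from the next, 4.36 CPM in MG 45. Birth and slaughter values ran through each other, and both lay wholly above the fetal ones. The stage means were 2.97 ± 2.42 CPM in fetuses (SD, n = 16), 90.4 ± 25.9 CPM at birth (SD, n = 16) and 97.9 ± 33.9 CPM at slaughter (SD, n = 15). Without MG 20 the fetal mean was 2.404 ± 0.914 CPM (SD, n = 15).

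CD36, the membrane carrier, had 1.94, 5.11 and 23.04 CPM in its lowest, median and highest fetal library, 51.1, 78.2 and 134 CPM at birth, and 57.7, 120 and 159 CPM at slaughter. Fetal library MG 20 again held the highest value, with 9.51 CPM in MG 47 next. Means were 6.54 ± 4.93 CPM in fetuses (SD, n = 16), 80.6 ± 22.7 CPM at birth (SD, n = 16) and 113 ± 30.2 CPM at slaughter (SD, n = 15), and 5.44 ± 2.30 CPM in fetuses without MG 20 (SD, n = 15). Of the 15 slaughter libraries, 13 lay above the birth median and 5 above the highest birth library.

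FABP3, the cytosolic carrier, had 5.71, 10.2 and 15.4 CPM in its lowest, median and highest fetal library, 26.6, 101 and 153 CPM at birth, and 62.6, 103 and 150 CPM at slaughter. The extremes at birth were both MG libraries, MG 17 at the bottom and MG 21 at the top, 5.74-fold apart. Means were 10.4 ± 2.80 CPM in fetuses (SD, n = 16), 101 ± 30.5 CPM at birth (SD, n = 16) and 104 ± 23.6 CPM at slaughter (SD, n = 15). Birth and slaughter overlapped, with birth MG 17 well below and birth MG 21 just above all slaughter libraries.

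**Figure D1:**
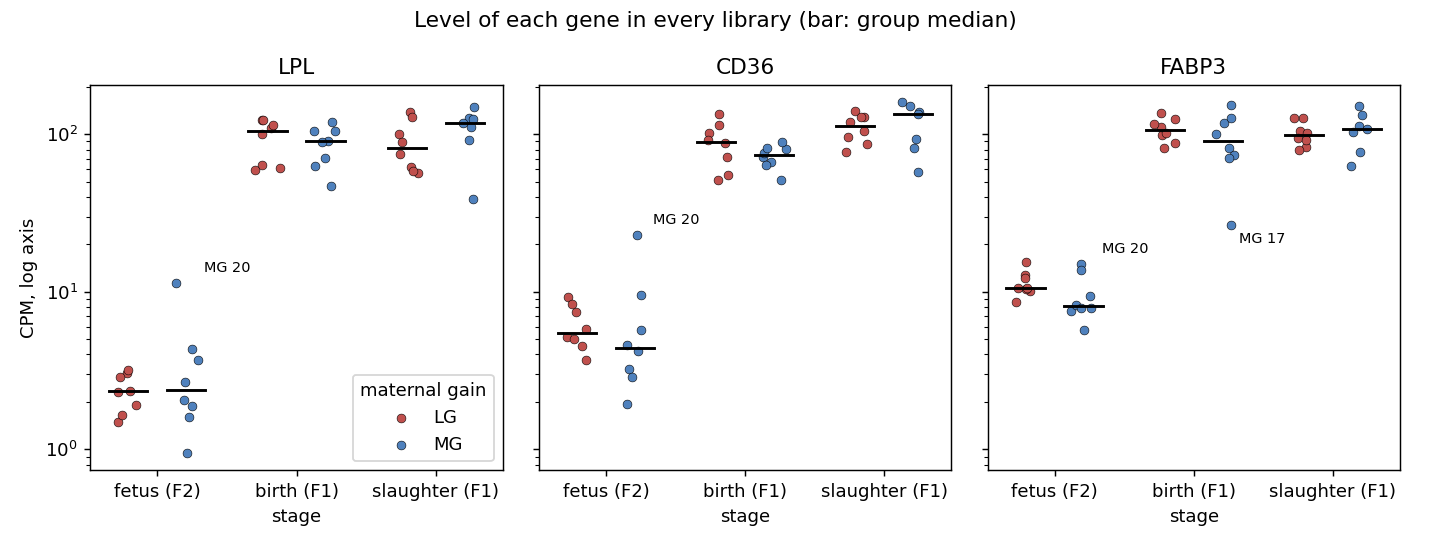
Level of LPL, CD36 and FABP3 in every library, in CPM on a log axis, by stage, with LG and MG libraries as separate points and a bar at each group's median. The fetal points lie below all birth and slaughter points in each panel, fetal MG 20 tops the fetal LPL (11.4 CPM) and CD36 (23.04 CPM) points, and birth MG 17 is the lowest FABP3 point after birth (26.6 CPM).

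Birth was set against day 84 of gestation to compare the 3 genes between the newborn before its first milk and the early fetus. On the log2 scale the change was 4.96 for LPL (SE 0.27, 95% interval 4.41 to 5.51), 3.62 for CD36 (SE 0.26, 3.08 to 4.16) and 3.30 for FABP3 (SE 0.18, 2.94 to 3.66). Adjusted p was 5.89e-18 for LPL, 1.44e-14 for CD36 and 2.73e-18 for FABP3 by edgeR's quasi-likelihood test with Benjamini-Hochberg adjustment over 14820 genes. All 3 genes rose, where 37.9% of all genes were called higher and 81.9% were called in either direction. The median change of the 3 genes was that of CD36, 3.62, and the median over all genes was -0.12. Only 1.42% of genes had a higher log2 fold change than LPL, 3.25% a higher one than CD36 and 4.08% a higher one than FABP3. The lowest birth library exceeded the highest fetal library 4.14-fold for LPL, 2.22-fold for CD36 and 1.73-fold for FABP3, and such a gap in the higher direction was seen in 13.9% of all genes.

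The size of this rise depends on the scaling. With libraries scaled by total count, tried after seeing the data, the log2 changes were 4.05 for LPL, 2.69 for CD36 and 2.4 for FABP3, while the median of all genes moved to -1. All 3 genes were called under both scalings. The gap between birth and fetal libraries remained for LPL alone. In log2 CPM by total count, CD36 was 5.26 in birth MG 13 and 5.41 in birth LG 22, below 5.48 in fetal MG 20. FABP3 was 4.85 in birth MG 17, below 4.87 in fetal MG 20. LPL was 5.14 in its lowest birth library, MG 21, against 4.47 in fetal MG 20. Without fetal MG 20 the changes, with TMM, were 5.23 for LPL, 3.91 for CD36 and 3.35 for FABP3. Under total count scaling 2734 genes were called higher and 9331 lower, against 5619 and 6522 with TMM.

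Slaughter was set against the same fetuses and against the same birth libraries, so the 3 stage comparisons share libraries. Against the fetus, log2 changes at slaughter were 5.10 for LPL (SE 0.29, 34.4-fold), 4.15 for CD36 (SE 0.28, 17.7-fold) and 3.38 for FABP3 (SE 0.15, 10.4-fold). Adjusted p was 4.63e-17, 3.69e-15 and 7.21e-20 by the same edgeR quasi-likelihood test, with 38.4% of all genes called higher and 83.4% called. With TMM none of the 3 genes had overlapping groups, and 16% of all genes lay wholly higher at slaughter. Total count scaling gave 4.09, 3.12 and 2.38 with a median of -1.15 over all genes. Under it CD36 overlapped, with a log2 CPM of 5.41 in slaughter MG 32 and 5.48 in fetal MG 20. Without fetal MG 20 the changes, with TMM, were 5.41, 4.48 and 3.46.

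Against birth, CD36 was higher at slaughter by 0.52 on the log2 scale (SE 0.14, 95% interval 0.23 to 0.80), with an adjusted p of 0.00163 by edgeR's quasi-likelihood test. The slaughter value was the higher one in 81.25% of all pairs of a slaughter and a birth library, so the groups overlapped. LPL differed by 0.14 (SE 0.17, -0.21 to 0.48, adjusted p = 0.487) and FABP3 by 0.066 (SE 0.15, -0.24 to 0.38, adjusted p = 0.707) in the same edgeR fit. Thus 1 of the 3 genes was called higher, where 37% of all genes were called higher and 70.2% were called, and 27.6% of genes had a higher log2 fold change than CD36. In LG libraries alone the CD36 change was 0.34 with an adjusted p of 0.126, and in MG libraries alone 0.67, both by edgeR, and the difference between these 2 changes was not called.

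Stage held most of the variation of the 3 genes. Of the sum of squares of log2 CPM over all 47 libraries, differences between stages held 94.25% for LPL, 92.1% for CD36 and 92.65% for FABP3. LG against MG within stages held 0.201%, 0.214% and 0.666%, and differences among libraries of the same group held the rest. Such shares were not computed for all genes, of which 81.9% were called between birth and fetus and 83.4% between slaughter and fetus. The spread within groups was wide for most of the route. In fetuses the within-group SD of log2 CPM was 0.81 for LPL, 0.85 for CD36 and 0.37 for FABP3, against a median of 0.47 over 7618 genes whose mean log2 CPM reached 3, a floor that fetal LPL and CD36 lie below. At birth it was 0.46, 0.39 and 0.58 and at slaughter 0.57, 0.43 and 0.35, against a median of 0.25 over all such genes at both stages. FABP3 had the lowest SD of the 3 in fetuses and at slaughter and the highest at birth, but the order at birth turns on MG 17. Without that library the SD at birth was 0.45 for LPL, 0.40 for CD36 and 0.34 for FABP3. Without MG 20 the SD in fetuses was 0.58 for LPL, 0.60 for CD36 and 0.32 for FABP3, against a median of 0.41 over all such genes.

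The proportions of the 3 genes within a library changed with stage too. A ratio within a library needs no scaling, and its change between groups is free of gene length. The log2 ratio of LPL to CD36 averaged 0.15 ± 0.47 at birth and -1.13 ± 0.57 in fetuses (SD, n = 16 each), a difference of 1.28 (permutation test, two-sided, p = 1e-05, the smallest that 100000 resamples can give, adjusted p = 3e-05 over 9 ratio comparisons). LPL thus gained on CD36 by 2.43-fold, with groups that overlapped. The log2 ratio of LPL to FABP3 differed by 1.86 between birth and fetus and by 1.84 between slaughter and fetus (adjusted permutation p = 3e-05 each).

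CD36 gained on FABP3 as well. Their log2 ratio averaged 0.11 ± 0.44 at slaughter (SD, n = 15), against -0.86 ± 0.69 in fetuses (SD, n = 16), a difference of 0.97 with an adjusted permutation p of 0.00018. Between birth and fetus that ratio differed by 0.58 (adjusted permutation p = 0.0291), and by 0.46 without birth library MG 17 (adjusted permutation p = 0.0506). Between slaughter and birth it differed by 0.39 (adjusted permutation p = 0.0637), and by 0.51 without MG 17 (adjusted permutation p = 0.00811). That library, with FABP3 at 26.6 CPM, LPL at 119 CPM and CD36 at 71.9 CPM, therefore decides both calls.

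The ratio of LPL to CD36 was 0.41 lower at slaughter than at birth on the log2 scale, at -0.25 ± 0.51 (SD, n = 15) against 0.15 ± 0.47 (SD, n = 16), with an adjusted permutation p of 0.0366. Without birth library MG 17 the difference was -0.37 with an adjusted permutation p of 0.0548. LPL to FABP3 differed by -0.014 between slaughter and birth (adjusted permutation p = 0.958). At birth it spanned -1.69 in MG 21 to 2.16 in MG 17, the widest range of any of the ratios at any stage.

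**Figure D2:**
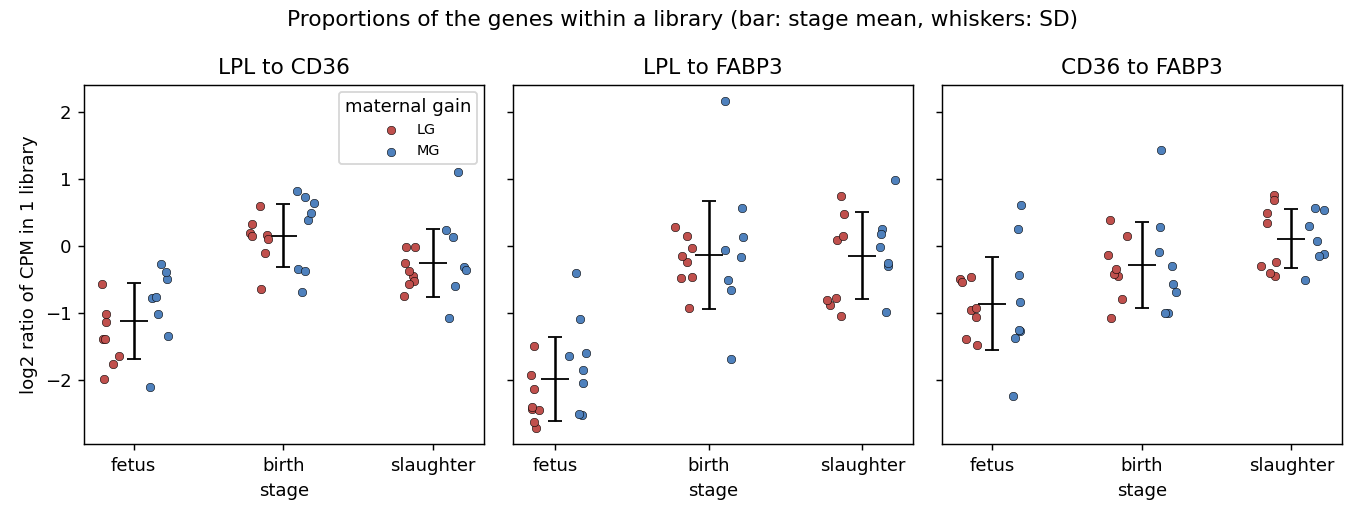
Log2 ratio of CPM of each pair of genes within each library, by stage, with LG and MG libraries as separate points, a bar at the stage mean and whiskers of 1 SD. The LPL to CD36 and LPL to FABP3 means are lower in fetuses (-1.13 and -1.99) than at birth (0.15 and -0.13), and the birth point at 2.16 for LPL to FABP3 is MG 17.

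LG was set against MG within each stage, the comparison the feeding trial was built for. In fetuses, LPL had 1.49, 2.33 and 3.19 CPM in its lowest, median and highest LG library, against 0.952, 2.36 and 11.4 CPM in MG libraries. CD36 had 3.70, 5.51 and 9.29 CPM in LG fetuses, against 1.94, 4.42 and 23.04 CPM in MG fetuses. The LG values of both genes lay inside the MG range, whose top was MG 20. FABP3 had 8.66, 10.51 and 15.4 CPM in LG fetuses, against 5.71, 8.08 and 15.0 CPM in MG fetuses, and all 8 LG libraries lay above the MG median.

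None of these fetal differences passed the test. The LG minus MG log2 change was -0.68 for LPL (SE 0.47, 95% interval -1.66 to 0.30), -0.24 for CD36 (SE 0.47, -1.23 to 0.75) and 0.25 for FABP3 (SE 0.24, -0.26 to 0.76), each with an adjusted p of 1.00 by edgeR's quasi-likelihood test. Of all 14200 genes tested 0% were called by edgeR, and 0 by DESeq2 or by limma voom with sample weights. At an unadjusted p under 0.05 there were 102 genes by edgeR, 215 by DESeq2 and 2798 by limma voom, and 380 by edgeR without MG 20. With no differences at all, a share of 0.05 of genes would have such a p. The edgeR and DESeq2 counts lay below that share and the limma voom count above it. Without MG 20 the change was -0.025 for LPL, 0.47 for CD36 and 0.44 for FABP3, so the fetal LPL difference, and the sign for CD36, rest on that library. With all libraries, limma voom with sample weights gave 0.29 for LPL, 0.81 for CD36 and 0.53 for FABP3 (adjusted p = 0.602, 0.206 and 0.206), none of them called.

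At birth, LPL had 59.1, 105 and 124 CPM in its lowest, median and highest LG library, against 47.3, 90.1 and 119 CPM in MG libraries. CD36 had 51.1, 89.8 and 134 CPM in LG calves, against 51.4, 74.0 and 89.5 CPM in MG calves, and 4 of the 8 LG libraries lay above the highest MG library. FABP3 had 82.3, 107 and 136 CPM in LG calves, against 26.6, 91.3 and 153 CPM in MG calves. Groups overlapped for all 3 genes. The log2 changes were 0.12 for LPL (SE 0.20, -0.30 to 0.55), 0.28 for CD36 (SE 0.18, -0.088 to 0.65) and 0.19 for FABP3 (SE 0.24, -0.30 to 0.69), with an adjusted p of 0.985 each by edgeR's quasi-likelihood test. Of 12485 genes 0% were called by edgeR, and 0 by DESeq2 or limma voom, while 515, 547 and 669 genes had p under 0.05 before adjustment in these tools.

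At slaughter, LPL had 56.9, 81.7 and 139 CPM in its lowest, median and highest LG library, against 38.8, 117 and 149 CPM in MG libraries. CD36 had 77.5, 112 and 140 CPM in LG heifers, against 57.7, 135 and 159 CPM in MG heifers. FABP3 had 79.9, 98.5 and 128 CPM in LG heifers, against 62.6, 107 and 150 CPM in MG heifers. For each gene the whole LG range lay within the MG range. The log2 changes were -0.28 for LPL (SE 0.26, -0.83 to 0.28), -0.076 for CD36 (SE 0.21, -0.52 to 0.37) and -0.069 for FABP3 (SE 0.16, -0.41 to 0.28), each with an adjusted p of 1.00 by edgeR's quasi-likelihood test. Of 12577 genes 0% were called by edgeR, and 0 by DESeq2 or limma voom, while 230, 253 and 365 genes had p under 0.05 before adjustment in these tools. All of these counts lay below a share of 0.05 of the genes.

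**Figure D3:**
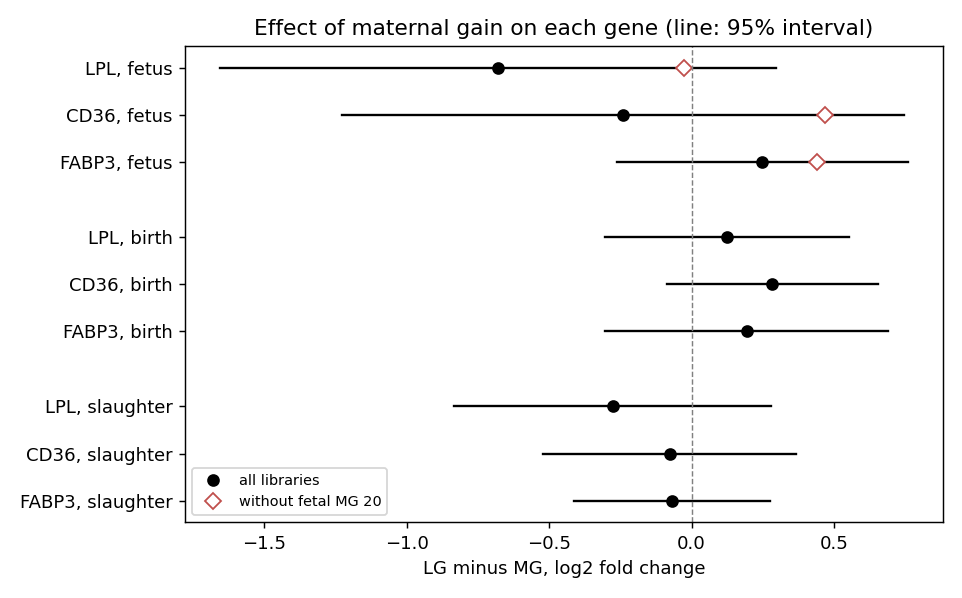
LG minus MG log2 fold change of each gene at each stage, with its 95% interval from edgeR, and the fetal values without library MG 20 as open diamonds. All 9 intervals include 0, the fetal ones of LPL and CD36 are the widest, and without MG 20 the fetal value is -0.025 for LPL, against -0.68 with it, and 0.47 for CD36, against -0.24 with it.

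Whether the gain effect itself differed between stages was tested in 1 edgeR model over all 47 libraries, in which 0% of 15264 genes were called for any pair of stages. At an unadjusted p under 0.05 there were 449 genes for birth minus fetus, 468 for slaughter minus birth and 341 for slaughter minus fetus, while DESeq2 called 2, 2 and 1. The largest difference among the 3 genes was that of LPL, 0.74 between birth and fetus (SE 0.43, adjusted p = 1.00 by edgeR's quasi-likelihood test), which was 0.20 without fetal MG 20 (SE 0.36). For CD36 the slaughter minus birth difference was -0.37 (SE 0.42). Nor was any within-library ratio called as different between LG and MG. The smallest of the 9 exact permutation p-values was 0.0707, for LPL to FABP3 in fetuses, whose log2 ratio was -2.27 ± 0.41 in LG fetuses and -1.71 ± 0.71 in MG fetuses (SD over 8 libraries of either group, adjusted p = 0.459, two-sided). Without MG 20 the difference of these means was -0.38 (exact permutation p = 0.139), against -0.56 with it.

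Within a stage, libraries with more LPL tended to have more CD36 in fetuses. Over the 16 fetal libraries Pearson's r of log2 CPM was 0.754 (permutation p = 0.00175, adjusted p = 0.0157 over 9 pairs) and Spearman's rho 0.679 (permutation p = 0.00503, adjusted p = 0.0453). It was 0.579 without MG 20 and MG 31, the libraries farthest from the LPL median, and 0.523 without MG 20 alone (adjusted permutation p = 0.166), so the call rests on MG 20. Among LG fetuses r was 0.448 (n = 8) and among MG fetuses 0.848 (n = 8), or 0.608 without MG 20. As background, 6.33% of 7618 genes had an r with fetal LPL as high as that of CD36, 12.4% one as high as that of FABP3, and 15% had an r with fetal CD36 as high as that of FABP3.

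LPL and FABP3 had an r of 0.612 in fetuses (permutation p = 0.0104, adjusted p = 0.0469, rho = 0.491), 0.515 without MG 20 and 0.267 without MG 20 and MG 31, so the call rests on those libraries. CD36 and FABP3 had an r of 0.544 (permutation p = 0.0281, adjusted p = 0.0844, rho = 0.618), 0.472 without the 2 libraries farthest from the CD36 median. The points of a pair share their library, its depth and its scaling. With scaling by total count the 3 fetal r were 0.817, 0.783 and 0.732 and all passed the adjusted test, while the shares of genes as high, in the same order, were 8.78%, 12% and 16.5% of 8697, 8697 and 8696 genes.

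After birth no pair passed the adjusted test with TMM scaling. At birth r was 0.379 for LPL and CD36, -0.211 for LPL and FABP3 and 0.188 for CD36 and FABP3 (adjusted permutation p = 0.264, 0.550 and 0.550), with rho at 0.374, -0.0206 and 0.226. Without MG 17 the r of LPL and FABP3 was 0.0350. At slaughter r was 0.504 for LPL and CD36 (permutation p = 0.0554, adjusted p = 0.125, rho = 0.614), or 0.618 with total count scaling, which passed (adjusted permutation p = 0.032). It was 0.0590 for LPL and FABP3 (adjusted permutation p = 0.835, rho = 0.0679) and 0.333 for CD36 and FABP3 (adjusted permutation p = 0.343, rho = 0.221).

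The pattern was not the same within LG and MG libraries, a difference that was not tested. At slaughter LPL and CD36 had an r of 0.906 over the 8 LG libraries and 0.321 over the 7 MG libraries. LPL and FABP3 had -0.661 in LG and 0.425 in MG, and CD36 and FABP3 had -0.637 in LG and 0.701 in MG. At birth LPL and CD36 had 0.723 in LG and -0.351 in MG, and LPL and FABP3 had 0.582 in LG and -0.603 in MG. These are values over 7 or 8 libraries each, given as a description.

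**Figure D4:**
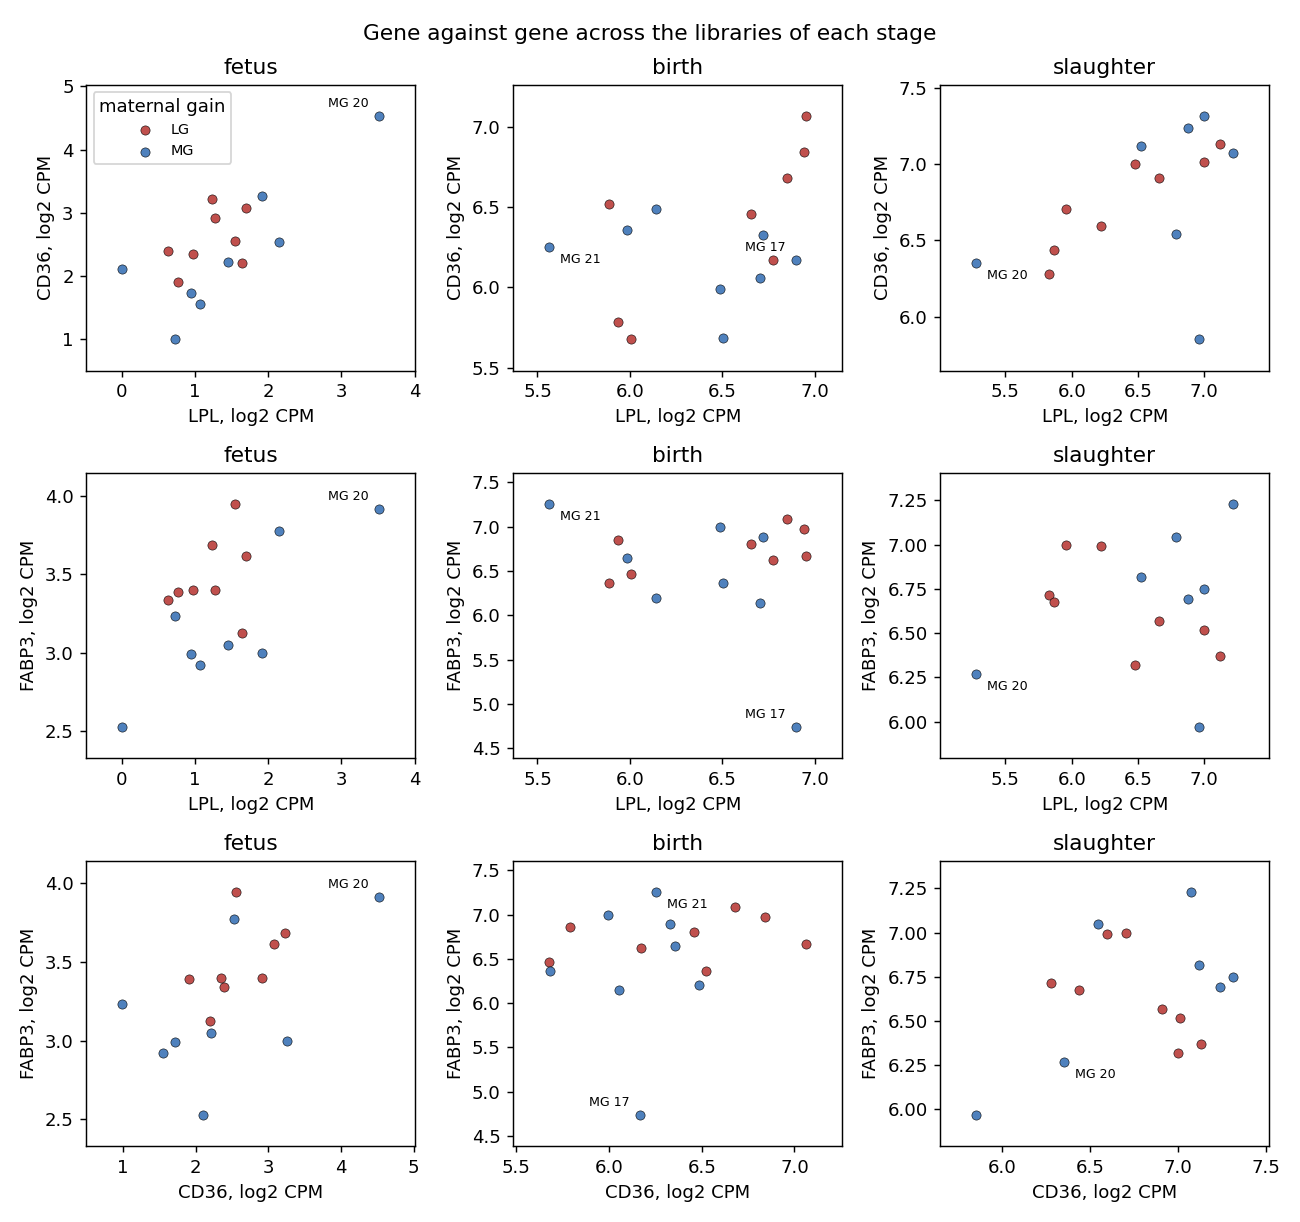
Log2 CPM of 1 gene against another in each library, with pairs of genes in rows, stages in columns and LG and MG libraries as separate points. Fetal MG 20 sits alone at the upper right of the fetal LPL and CD36 panel (r = 0.754 with it and 0.523 without it), and birth MG 17 alone at the bottom of the birth panels with FABP3.

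The levels also moved with the main axis of variation among libraries. In fetuses the first principal component took up 46.9% of the variance of 14200 genes, and LPL and CD36 had an r with it of 0.791 and 0.802 (adjusted permutation p = 0.00288 each, over 27 relations, rho = 0.726 and 0.650), against 0.358 for FABP3 (adjusted permutation p = 0.360). Without MG 20 and LG 41, the libraries farthest from the median of that axis, r was 0.785 for LPL and 0.779 for CD36. For LPL r was 0.484 in LG fetuses and 0.931 in MG fetuses, or 0.821 in MG without MG 20. For CD36 it was 0.501 in LG fetuses and 0.938 in MG fetuses, or 0.833 in MG without MG 20, and the difference between LG and MG was not tested. At slaughter the first component held 24.01% of the variance and CD36 had an r with it of 0.813 (adjusted permutation p = 0.00288, rho = 0.857, and 0.807 without LG 07 and LG 14), LPL one of 0.617 (adjusted permutation p = 0.0774) and FABP3 one of 0.0353. At birth it held 20.8%, with an r of 0.584 for CD36 (adjusted permutation p = 0.0774). The component is made from all genes, these genes among them, and its direction was set by CD36. So r says only how far a gene follows that axis, not the bulk of genes. Over 7618 genes above the floor on mean log2 CPM, the median r was -0.504 with fetal LPL and -0.489 with fetal CD36. Over 7542 such genes at slaughter it was -0.294 with CD36. With TMM, most of these genes thus ran against LPL and CD36 in fetuses and against CD36 at slaughter. The TMM factor itself was 1.19 in LG 41, the fetal library with the lowest score, and 1.93 in MG 20, with the highest. At slaughter it was 0.731 in LG 07, with the lowest score, and 0.851 in LG 14, with the highest. Neither the component nor these medians were taken with total count scaling, so the part of the scaling in them was not tested.

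No relation of the 3 genes with total count or with the share of the 10 most abundant genes passed the adjusted test on r. The fetal values with that share were -0.539 for LPL and -0.630 for CD36 (adjusted permutation p = 0.104 and 0.0560), while their ranks passed (adjusted permutation p = 0.0323 each for Spearman's rho). At birth FABP3 had an r of 0.632 with the share (adjusted permutation p = 0.104), with MG 17 lowest in both.

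**Figure D5:**
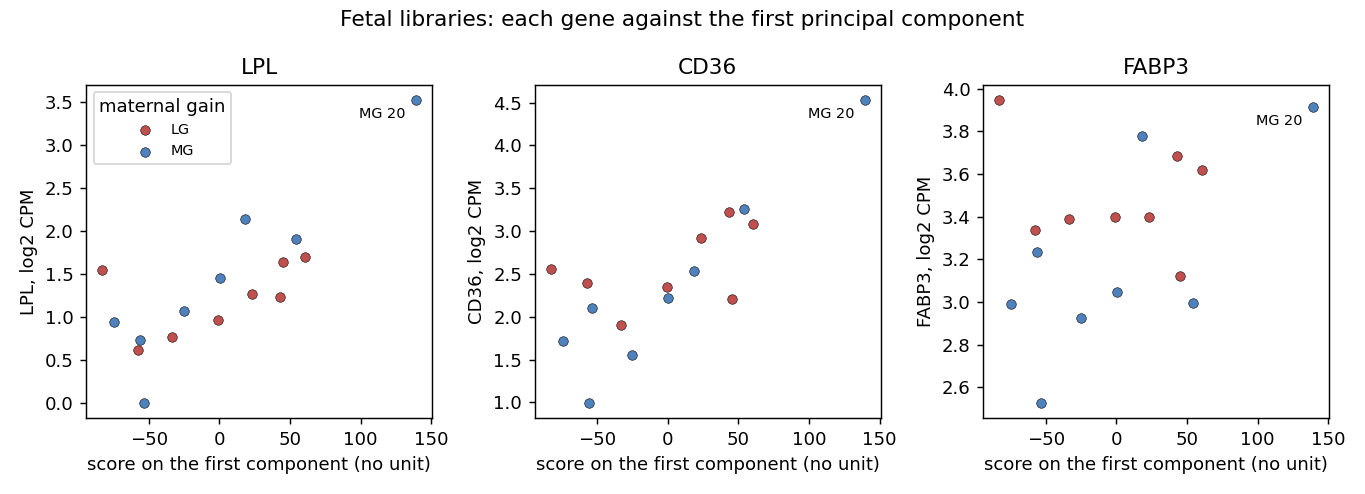
Log2 CPM of each gene in the 16 fetal libraries against the score on the first principal component of their stage (no unit), with LG and MG libraries as separate points. LPL (r = 0.791) and CD36 (r = 0.802) follow the axis and FABP3 (r = 0.358) does so less closely, with MG 20 at the far right of each panel.

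The identifiers most like each gene across libraries differed by stage and carry no names here. In fetuses LPL was most like ENSBTAG00000004051 (r = 0.922, n = 16 libraries, among 7618 genes) and CD36 most like ENSBTAG00000018643 (r = 0.947). Fetal FABP3 was most like ENSBTAG00000003589 (r = 0.833). At birth FABP3 was most like ENSBTAG00000000961 (r = 0.886), CD36 most like ENSBTAG00000000013 (r = 0.890) and LPL most like ENSBTAG00000031917 (r = 0.797). At slaughter CD36 was most like ENSBTAG00000046553 (r = 0.942, n = 15), LPL most like ENSBTAG00000014336 (r = 0.863) and FABP3 most like ENSBTAG00000012594 (r = 0.818). The 3 genes did not appear among the 2 most alike of each other at any stage. In fetuses LPL and CD36 could not appear, as their mean log2 CPM lay below the floor of 3 for these lists.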

How the data were processed

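Gene counts, as deposited by the authors, are whole numbers in 1 table per stage. Per the labels' protocols, the polyA libraries were made with a kit that does not mark strand, so a gene and an overlapping antisense gene share reads. The submitters' processing notes name STAR 2.7.3a, edgeR 3.24.3, FastQC 0.11.8 and MultiQC 1.9. No source used here names the counting program, genome build or annotation. In the slaughter table the header has no cell above the identifiers, and the first name was read as heading the first column of values. No per-sample column was left unused. Groups follow the labels for treatment and timepoint.

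In R 4.3.3, genes that passed filterByExpr were scaled by TMM and tested by edgeR 4.0.16 with robust quasi-likelihood fits, Benjamini-Hochberg adjustment over all genes tested and a threshold of 0.05. LG and MG were compared within a stage, stages with LG and MG weighted equally, and gain effects between stages in 1 model of 6 groups. Log2 CPM used a prior count of 1. Ratios and correlations were tested by two-sided permutation in Python 3.11.15, with 100000 resamples or, under 10 values a group, every arrangement. Tried as alternatives were limma 3.58.1 (voom with sample weights), DESeq2 1.42.0, DESeq2 size factors, no filter, 1 model over all libraries, LG or MG alone, a prior count of 5 and leaving out libraries. Total count scaling in edgeR, and the stage, interaction, ratio and covariation results without fetal MG 20 or birth MG 17, were added after seeing the data. Pairs of libraries of 1 group differed by a chi-square of at least 23.2 per degree of freedom, so none was counted as a duplicate.

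The members and lists were chosen with earlier results of these data known. Identifiers taken up were the 3 genes and, per gene and stage, the 2 others with the highest r among genes whose mean log2 CPM reached 3. Of these 2 only the first is printed. The lists of fatty acid handling genes and of cell type markers need symbols and were not run. No sequences or coordinates are given, as none could be tied to the identifiers.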

Additional observations from a re-analysis of the deposited data

Results flagged for a closer look

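Samples standing apart from the rest of their group were sought in 36 groups, the 3 genes and their 3 ratios in each of the 6 groups of libraries, by the gap of the highest or lowest library to its neighbour. About 1 in 20 groups is picked by chance at this level, and the share of the 36 groups picked was close to that. LPL in fetal library MG 20 was 11.4 CPM, with 4.36 CPM in the nearest MG fetus, a gap of 0.675 of the whole MG range. CD36 in the same library was 23 CPM, with 9.51 CPM in the nearest MG fetus, a gap of 0.641 of the range. In log2 CPM, on which no gap was tested, LPL was 3.52 in MG 20, 2.14 in MG 45 and 0.00443 in MG 31, the lowest. CD36 was 4.53 in MG 20, 3.26 in MG 47 and 0.993 in MG 39, the lowest. Both gaps are a smaller share of the range there than in CPM. Fetal library MG 20 had 15.0 CPM of FABP3, the highest among MG fetuses but inside the LG range. It also had the score farthest from the others on the first principal component of the fetal libraries. Values without this library stand beside the stage changes, the spread, the LG and MG comparisons and the fetal correlations above.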

How the results depend on the processing

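The rise of all 3 genes at birth and at slaughter over the fetus, and the LG and MG comparisons with 0 calls for them, held under every alternative run. Between slaughter and birth, LPL and FABP3, neither called, changed sign: LPL was -0.062 and FABP3 -0.058 in LG libraries alone, and FABP3 was -0.015 with total count scaling and -0.044 without birth MG 17. CD36, called, was 0.34 in LG libraries alone. For LG minus MG in fetuses, limma voom with sample weights gave 0.29 for LPL and 0.81 for CD36. For the difference of effects it gave -0.13 for LPL and -0.51 for CD36 between birth and fetus, and -0.62 and -0.85 between slaughter and fetus, while total count scaling gave FABP3 0.018 between birth and fetus. Without fetal MG 20, CD36 was -0.14 between birth and fetus, and LPL -0.23 and CD36 -0.51 between slaughter and fetus. Genes called moved to 2 for fetal LG against MG in 1 model over all libraries, and to 2, 2 and 1 for the 3 differences of effects by DESeq2. The cause was not tested.

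Leaving out 1 library gave LG minus MG ranges of -0.85 to -0.025 for LPL, -0.43 to 0.47 for CD36 and 0.14 to 0.44 for FABP3 in fetuses. At birth they were 0.032 to 0.21 for LPL, 0.17 to 0.37 for CD36 and 0.053 to 0.32 for FABP3, and at slaughter -0.42 to -0.19 for LPL, -0.20 to 0.020 for CD36 (0.0011 without MG 39) and -0.17 to 0.028 for FABP3. In all of these 0 genes were called.

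For ratios in MG libraries alone, LPL to CD36 was -0.33 between slaughter and birth and 0.77 between slaughter and fetus, LPL to FABP3 was 0.010 between slaughter and birth, and CD36 to FABP3 was 0.57 between birth and fetus and 0.92 between slaughter and fetus. Of these, the first pair and the last pair lost their calls (adjusted permutation p = 0.373, 0.0604, 0.317 and 0.0604), with fewer libraries in the test. For LG minus MG, CD36 to FABP3 was 0.11 in fetuses without MG 20, and at birth without MG 17 LPL to FABP3 was 0.11 and CD36 to FABP3 0.15. Without birth MG 17, LPL to CD36 was -0.37 and LPL to FABP3 0.14 between slaughter and birth, and CD36 to FABP3 was 0.46 between birth and fetus (0.68 without fetal MG 20) and 0.51 between slaughter and birth, where the LPL to CD36 and the birth to fetus calls were lost and the last was gained. Covariation by total count reached 0.732 for CD36 and FABP3 in fetuses and 0.618 for LPL and CD36 at slaughter, and both calls were gained (adjusted permutation p = 0.00432 and 0.032). Without the 2 farthest libraries it was 0.579 for LPL and CD36 and 0.267 for LPL and FABP3 in fetuses, with both calls lost, and -0.188 for LPL and FABP3 and -0.0184 for CD36 and FABP3 at slaughter. Without fetal MG 20 these fetal values were 0.523 and 0.515, with both calls lost, and without birth MG 17 that of LPL and FABP3 was 0.0350.

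Library numbers are shared by 7 pairs of birth and fetal, 6 of slaughter and birth and 15 of slaughter and fetal libraries. The median correlation of deviations of same-numbered libraries was 0.0557, 0.0585 and 0.0592, over 0.1 in 2, 1 and 5 pairs. The lowest was -0.232, 0.0282 and -0.275, and 2, 3 and 2 libraries correlated best with their own number. These values do not decide whether a shared number marks a pair, and the main fits left the numbers unpaired. With the replicate block, slaughter minus birth was -0.037 for LPL, 0.63 for CD36 and -0.17 for FABP3 with 7146 genes called. Without the block, the same libraries gave -0.031 for LPL and -0.18 for FABP3 with 6477 called. Birth minus fetus under the block was 5.07, 3.50 and 3.17 with 10587 called, against 10336 without it, and slaughter minus fetus was 5.27, 4.32 and 3.37 with 12447 called, against 12399.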

Other observations

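Many library numbers recur between stages, always within the same gain group, and the labels do not say that a shared number marks the same animal or a mother and her fetus. Across the 15 numbers found at slaughter and in fetuses, the log2 CPM at slaughter had an r with that in the fetus of -0.350 for LPL, -0.163 for CD36 and -0.0916 for FABP3 (permutation test, two-sided, adjusted p = 0.611, 0.840 and 0.908 over 9 relations). Over the 6 numbers at slaughter and birth, r was -0.599 for LPL and 0.620 for FABP3 (exact permutation test, adjusted p = 0.611 each). Number 20 had the lowest LPL level of all slaughter libraries, 38.8 CPM, and the highest of all fetal libraries, 11.4 CPM. It was picked out after its values were seen, and without it the r of LPL between slaughter and fetus was 0.164 over 14 numbers.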
